A study of Ovis aries with 91 samples.

Results

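The genes described here are the abundant transcripts of the sheep atria whose mean level moved little with atrial fibrillation or with atrial side. A gene was a member when its mean reached 9 or more in log2 CPM, the log2 of read counts scaled to the size of the library, in each of 3 tables: whole tissue of the atrial appendages, cardiomyocytes isolated from the appendages, and tissue of the posterior left atrium. Its paced change, the mean of the fibrillating groups minus the control mean, also had to stay under 0.3 in size in both appendage tables. Its left minus right difference had to stay under 0.4 there, and its change in the posterior left atrium under 0.8. Of 11824 genes listed in all 3 tables, 175 reached the level in every table and 102 of those met every limit, so the cap of 300 genes was not used. The other 73 abundant genes exceeded at least 1 limit, most often the paced change in whole tissue, with 58 genes, or in cardiomyocytes, with 44. Within the limits on change alone lay 44.1% of genes of any level, against 58.3% of the abundant ones. The members were chosen by their measured levels, paced changes and side differences, so those values are given below as descriptions.

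A small number of genes fills a large part of a cell's messenger RNA. In heart muscle such genes typically encode contractile proteins, mitochondrial enzymes and the ribosome, all of which a cell that beats without pause needs in quantity. Genes whose level changes little between conditions are used as references against which others are measured, so the spread of a candidate between animals matters as much as its mean.

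In this study a rapid pacing device in the right atrium of sheep induced atrial fibrillation, and RNA was sequenced from control sheep, from sheep in transition to sustained fibrillation and from sheep in chronic fibrillation. Appendage control groups held sheep S3 and S4, which are labelled sham, and sheep C1, which is labelled control. Each of the 6 appendage groups (left or right, by state) held 3 sheep in each table, and left and right came from the same sheep. Whole tissue came from transition sheep D24, D27 and D30 and chronic sheep D15, D16 and D19, and cardiomyocytes from transition sheep D23, D24 and D27 and chronic sheep D16, D19 and D20. For the posterior left atrium there were 6 control sheep and 6 transition sheep, and no chronic group is analysed here. Its controls were S3, S4 and C1 and the sham sheep G21, G32 and G36. Its transition sheep were D24, D27, G5, G13, G26 and G34, and the deposited columns of those with G numbers are named Saline. The labels give no age, sex, strain or pacing time, and p-values measure the spread between these sheep only. Reads recovered from the deposited values ranged from 6.24e+06 to 2.24e+07 per library in whole tissue and from 5.31e+06 to 1.24e+07 in cardiomyocytes, while depth in the posterior left atrium is unknown.

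The files name genes by Ensembl sheep identifiers and do not pair them with symbols, and 0 of 13803 identifiers matched the reference table. The members are therefore given by identifier, without function or sequence, and neither tissue nor cell type was checked against marker genes.

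Member levels fell steeply from the first genes to the last. The median member stood at 9.97 log2 CPM in whole tissue, 9.95 in cardiomyocytes and 9.99 in the posterior left atrium, and 9, 12 and 11 members reached 12 or more. The most abundant was ENSOARG00000020797, with a mean of 13.67 in whole tissue, 13.79 in cardiomyocytes and 13.97 in the posterior left atrium. Its 18 whole tissue libraries lay between 13.21 and 14.11 and its 18 cardiomyocyte libraries between 13.50 and 13.99. ENSOARG00000001811 came second, at 13.04, 13.53 and 13.41. These are levels per library and are not divided by transcript length, so their order is an order of read counts. Member order was much the same in every table, with Spearman's rho over the 102 genes between 0.93 and 0.96 for the 3 pairs of tables, which share sheep and the same level threshold. At the threshold, the lowest member level was 9.05 in whole tissue (ENSOARG00000013748), and a gene left out by this limit alone stood at 8.99 (ENSOARG00000000170). For the paced change the values just inside and just outside the limit were -0.29 and -0.31 in whole tissue and 0.28 and 0.31 in cardiomyocytes. The largest side difference of a member was 0.39 in whole tissue and 0.40 in cardiomyocytes, and no abundant gene was left out by a side limit alone.

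**Figure D1:**
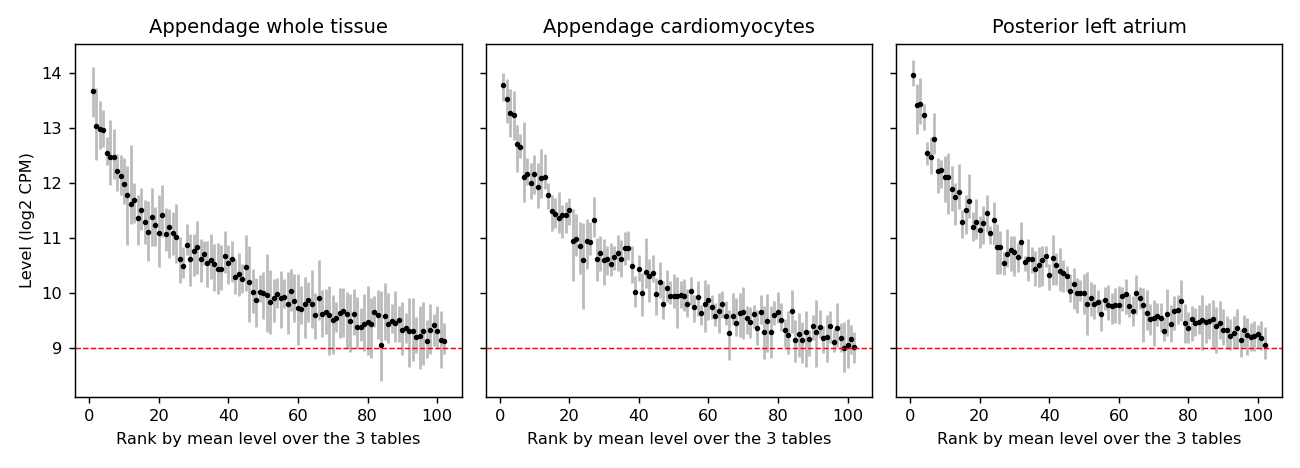
Mean level (points) and range over libraries (grey bars) of each of the 102 members in log2 CPM, in order of the mean over the tables. The dashed line is the threshold of 9, and levels run from about 9 to 13.67, 13.79 and 13.97 in the 3 tables.

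The members held between 16.5% and 20.3% of the listed reads of a whole tissue library, 18.6% to 21.7% in cardiomyocytes, and 17.9% to 22.1% of the deposited CPM in the posterior left atrium. Within that share, the 10 members with the highest mean over the tables took 35.2% to 41.8%. In left whole tissue the controls stood apart, with 20.1%, 20.1% and 20.3% in the controls, 17.5%, 17.6% and 18.7% in transition, and 16.5%, 17.1% and 18.5% in chronic sheep. The left controls lay above all left paced libraries, while the transition and chronic ranges overlapped. In right whole tissue the groups overlapped, at 18.4% to 19.97%, 17.1% to 19.3% and 16.5% to 20.2%. In cardiomyocytes the groups overlapped on both sides. In the posterior left atrium the share ranged from 20.4% over a median of 21.4% to 22.1% in controls and from 17.9% over 19.97% to 21.4% in transition sheep, and the groups overlapped. In these bulk samples fewer cells of a type and less RNA per cell cannot be told apart.

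The members varied less between sheep of one group than most genes did in cardiomyocytes and in the posterior left atrium. The median within-group SD of a member was 0.15 log2 units in cardiomyocytes and 0.16 in the posterior left atrium, against 0.28 and 0.25 over all genes tested and 0.22 in both tables over the other 73 abundant genes. In cardiomyocytes 100 of 102 members lay under the median gene, and in the posterior left atrium 95. Whole tissue was closer, with a median SD of 0.23 against 0.30 over all genes and 78 members under the median gene. Genes that vary more between sheep more often exceed a limit on means, so this difference follows in part from the rule and was not tested. By state, the median member SD in whole tissue was 0.20 in controls, 0.19 in transition and 0.28 in chronic sheep, whereas in cardiomyocytes it was 0.12, 0.17 and 0.12. Which members varied most was not shared between whole tissue and cardiomyocytes, with a Spearman's rho of -0.06 over the 102 genes, and was partly shared between whole tissue and the posterior left atrium, at 0.49.

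ENSOARG00000016562 and ENSOARG00000006957 had the lowest spread, taking for each gene its largest SD over the tables. ENSOARG00000016562 had within-group SDs of 0.12, 0.10 and 0.08 in whole tissue, cardiomyocytes and the posterior left atrium, around means of 10.71, 10.65 and 10.56. Its 18 whole tissue libraries spanned 10.51 (left, D16) to 10.95 (left, D15). ENSOARG00000006957 had SDs of 0.13, 0.14 and 0.10, around 9.98, 9.81 and 9.83. Its paced change was 0.16 in whole tissue and 0.18 in cardiomyocytes, and it was 0.24 higher in transition than in control posterior left atrium. There it was among the 18 members called by limma (adjusted p of 0.046), beside 17.5% of all genes. The rule used these contrasts, so nothing is read from them. At the other end, ENSOARG00000009785 had SDs of 0.48, 0.23 and 0.37. Its right transition whole tissue libraries read 10.87, 11.98 and 12.27. ENSOARG00000001499, with SDs of 0.40, 0.20 and 0.31, read 10.41 and 10.44 in the left and right tissue of chronic sheep D15 but 9.29 on both sides of chronic sheep D16. The mean of both sides of this member thus differed by 1.14 log2 units between these sheep of one state.

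**Figure D2:**
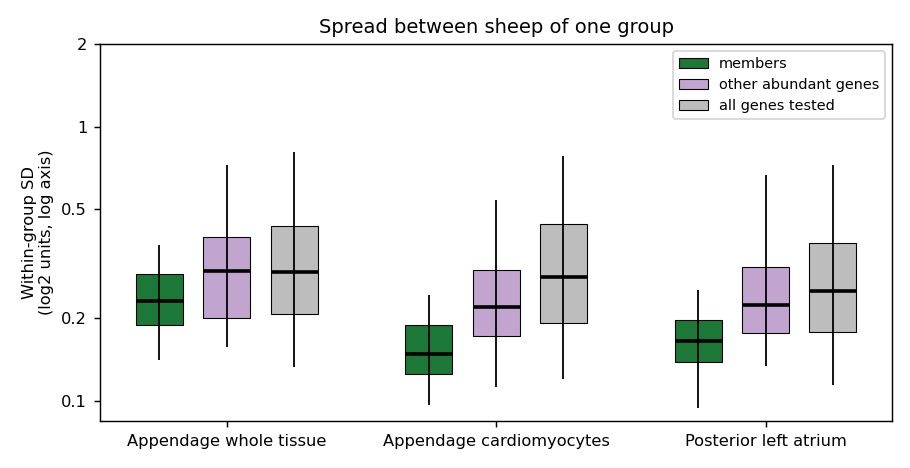
Within-group SD in log2 units (log axis) of the 102 members, the other 73 abundant genes and all genes tested in each table. Boxes hold the middle of the genes from the lower to the upper quartile, thick lines are medians and thin lines run from the 5th to the 95th percentile. Member medians are 0.23, 0.15 and 0.16.

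In whole tissue the members tended to be high or low together. A single component held 52.9% of their variance over the 18 libraries, with 84 members on one side and 18 on the other, against 33.0% in cardiomyocytes and 40.7% in the posterior left atrium. The component was not computed for the other abundant genes or for all genes. On the deposited scale the ends of the whole tissue component were the right libraries of chronic sheep D15 and D16. With library totals it held 47.7%, with 73 members on one side and 29 on the other. With library totals the upper end was again the right D15 library, the lower end was the right library of transition sheep D27, and the left D15 library was no longer among the highest. In D15 the median member stood 0.27 above its own table mean in the left appendage and 0.26 in the right, whereas in D16 it stood at -0.12 and -0.29. With library totals these values were 0.0023 and 0.16 for D15, and -0.14 and -0.21 for D16. The third chronic sheep, D19, read 0.04 above on the left and 0.15 below on the right.

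Averaged over both sides, 86 of 102 members were higher in D15 than in D16, which was not counted over the other abundant genes or over all genes. At the median the members were 0.47 higher in D15 than in D16 and 0.37 higher than in D19. No other pair of sheep of one state differed by more than 0.13 in appendage whole tissue or 0.18 in cardiomyocytes. Pairs were not compared this way in the posterior left atrium. There the median member's deviation from its own mean was 0.22 in transition sheep G13 and -0.18 in transition sheep G34. Over all genes the D15 minus D16 median was -0.02, and over the other abundant genes 0.17. The left library of D15 also had the lowest scaling factor of all appendage libraries, 0.828. With libraries scaled to their totals the member median was 0.25 and the all-gene median -0.25. Such scaling moves all genes of a library alike, so the gap between members and all genes could not change. Without D15 the first component still held 46.6% of the variance, and the median member SD in whole tissue was 0.19. D15 gave no cardiomyocyte library, so this sheep could not be compared there, and the part of any technical difference in its libraries was not tested.

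**Figure D3:**
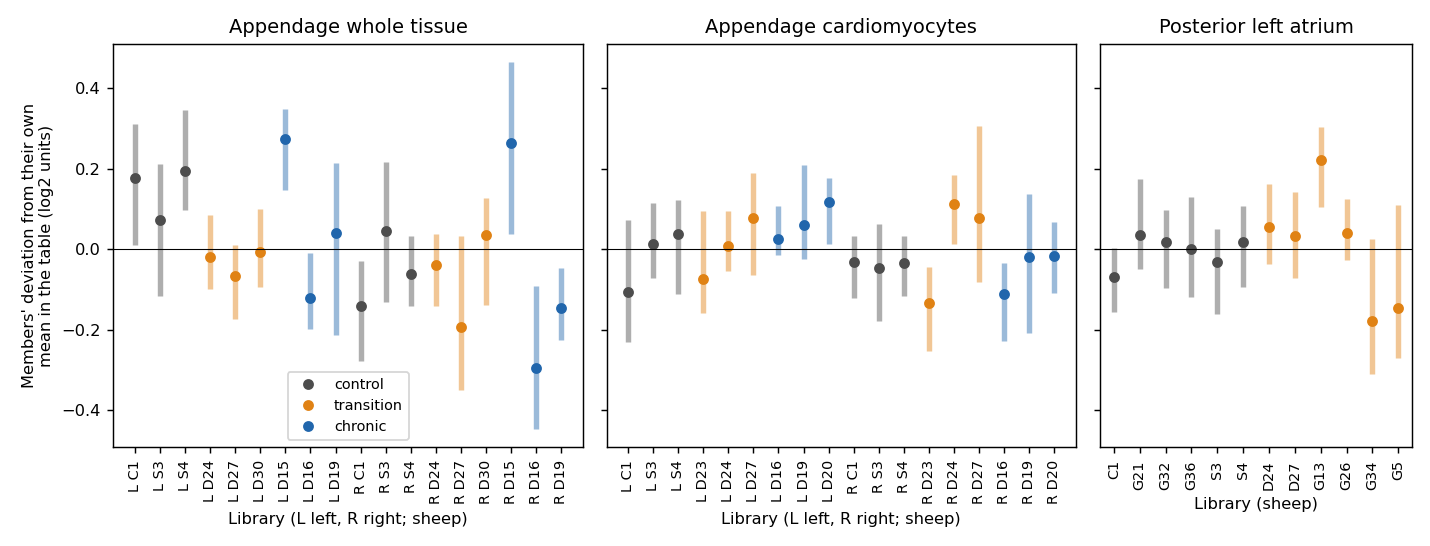
Deviation of the members from their own mean in the table, in log2 units, for each library, as the median (point) and middle range between quartiles (bar) over 102 members, coloured by state. On this deposited scale both D15 libraries sit highest in whole tissue, at 0.27 and 0.26, and the right D16 library lowest, at -0.29.

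The rule averaged the fibrillating states and the sides, so it did not use the difference between chronic and transition sheep. Tested with limma across all genes with a mean log2 CPM of 0 or more, and adjusted by Benjamini-Hochberg over them, 0 of 102 members passed 0.05 in whole tissue for chronic minus transition averaged over the sides. The background was 0.114% of 12333 genes, so a count of 0 among 102 members is what that share gives. In the left and the right appendage alone, 0 members passed, against 0% of all genes on each side. In cardiomyocytes 0 members passed for the mean of both sides (background 0.0244% of 12279 genes), for the left (0.00814%) and for the right (0.00814%). At an unadjusted limma p under 0.05 the members numbered 3, 7 and 0 of 102 in whole tissue for the mean, left and right. Over all genes these counts were 1335, 1352 and 747 of 12333. In cardiomyocytes the members numbered 10, 8 and 10, beside 1022, 865 and 1098 of 12279 genes. The voom weighting also called 0 members in each of these contrasts.

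The size of the differences says more than these counts. In whole tissue the median member's size of change between chronic and transition was 0.09 log2 units. Over all genes it was 0.16, and over the other abundant genes 0.14. In cardiomyocytes the member value was 0.08, against 0.16 and 0.15. The rule favours genes that vary little between sheep, so smaller changes may follow in part from it, which was not tested. All 102 members had 95% intervals, taken gene by gene, that lay within 1 log2 unit of 0 in both tables, with median half-widths of 0.31 and 0.23. A 2-fold change of the mean of both sides thus lay outside the interval of each member, which was not counted over all genes. The signed median in whole tissue was 0.04, but -0.08 without D15 and -0.05 with library totals, and up to 0.11 (without D16) when another sheep was left out. In cardiomyocytes it was -0.01, and leaving out 1 sheep gave -0.08 (without D23) to 0.04 (without D27).

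The largest rise between transition and chronic whole tissue belonged to ENSOARG00000015194, at 0.42 ± 0.17 (SE) with a limma adjusted p of 0.38, and at 0.23 without D15. The largest fall belonged to ENSOARG00000018593, at -0.28 ± 0.13 (SE) with a limma adjusted p of 0.43, and at -0.15 without D30. Chronic libraries of ENSOARG00000018593 read 9.26, 9.38 and 9.62 on the left, and its transition libraries 9.62, 9.68 and 10.04. The highest left chronic value, in D15, and the lowest left transition value, in D27, were alike. On the right they read 9.26, 9.39 and 9.79 against 9.5, 9.59 and 9.94, so the states overlapped there.

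In cardiomyocytes ENSOARG00000006966 had the largest rise, 0.30 ± 0.14 (SE, limma adjusted p of 0.59), or 0.20 without either D20 or D23. ENSOARG00000020482 had the largest fall, -0.50 ± 0.18 (SE, limma adjusted p of 0.51). Right chronic cardiomyocytes read 9.71, 10.09 and 10.14 for ENSOARG00000020482 and right transition ones 10.36, 10.62 and 10.85. All 3 right chronic values were below the right transition values, and also below the right control values of 10.33, 10.72 and 10.98. In whole tissue the same gene read 10.84, 10.87 and 11.17 in right chronic and 10.95, 11.18 and 11.47 in right transition libraries, which overlapped. Both contrasts missed the threshold, which does not show that the levels were equal.

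Leaving out transition sheep D23 changed 1 of these counts. In right cardiomyocytes, ENSOARG00000010281 and ENSOARG00000018886 then passed, each with a limma adjusted p of 0.044 and lower in chronic sheep, by -0.64 ± 0.14 and -0.57 ± 0.12 (SE). With D23 in the fit their differences were -0.45 ± 0.16 and -0.35 ± 0.15 (SE), with limma adjusted p of 0.51 and 0.53. ENSOARG00000010281 read 9.09 in the right cardiomyocytes of D23 against 9.66 and 9.70 in the other transition sheep, and 8.92, 9.04 and 9.16 in chronic sheep. Over all genes the count in this contrast was 90 without D23 and 1 with it. The median member was also lower in D23 than in transition sheep D24 and D27, by -0.17 and -0.18.

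**Figure D4:**
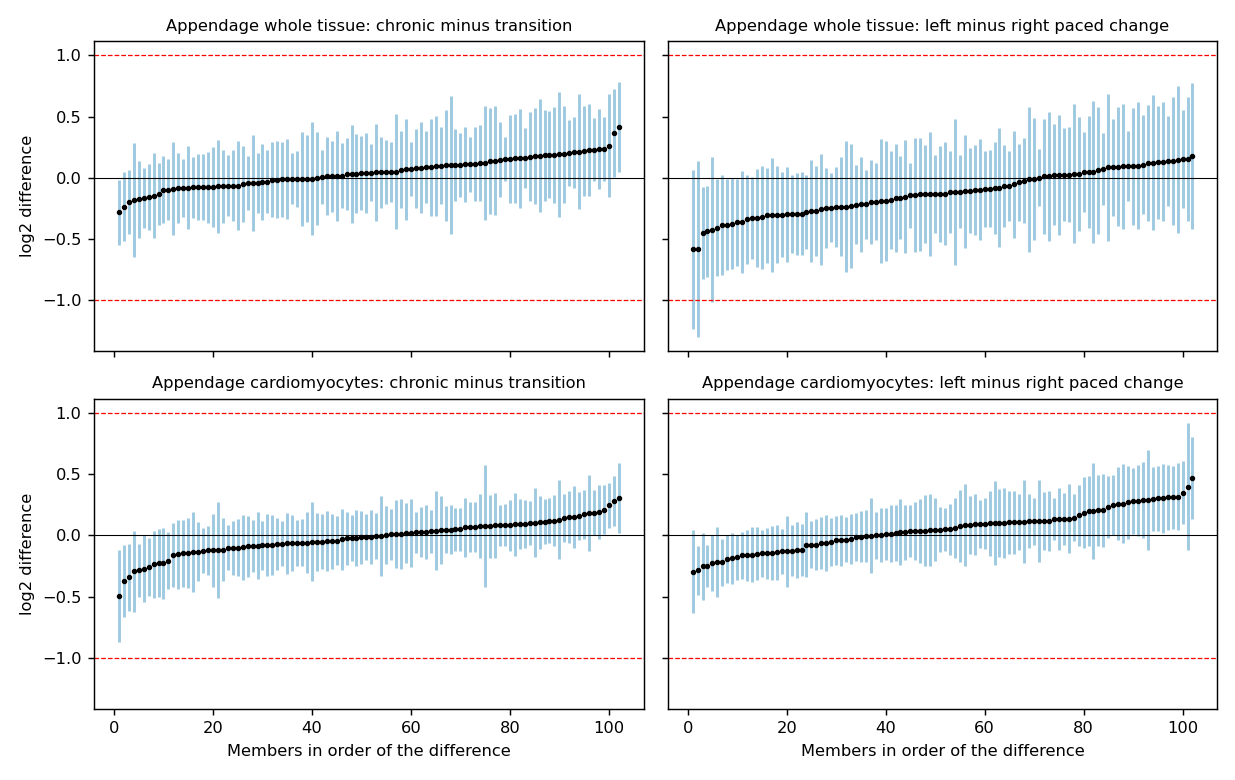
Difference in log2 units with its 95% interval (bars) for each of the 102 members, in order of the difference, for 2 contrasts that the rule did not use, in each appendage table. Dashed lines mark 1 log2 unit in either direction. All intervals of chronic minus transition lie between those lines, as do 99 of 102 for the side difference in whole tissue.

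The rule used the mean of both sides and the mean of both paced states, but not whether the paced change differed between left and right. For that side difference, 0 of 102 members passed in whole tissue, where 0.0486% of all genes passed by limma, and 0 passed in cardiomyocytes, where 0.0244% did. At an unadjusted limma p under 0.05 there were 6 of 102 members in whole tissue, beside 1041 of 12333 genes. In cardiomyocytes there were 14, beside 1432 of 12279 genes. The voom weighting called 0 members in both. In whole tissue 70 of 102 members had a lower paced change on the left than on the right. The other 32 had a higher one, as did 47.0% of all genes. The member median was -0.13, against -0.02 over all genes. With library totals 37 members and 54.9% of all genes had a higher one, the member median was -0.08 and the all-gene median 0.03. The largest such difference was that of ENSOARG00000001811, the second most abundant member, at -0.59 ± 0.31 (SE, limma adjusted p of 0.66). Its left whole tissue read 13.33, 13.47 and 13.60 in controls against 12.64, 12.68 and 13.06 in transition and 12.88, 12.97 and 13.52 in chronic sheep. The left controls lay above the left transition values and overlapped the chronic ones through D15. Right controls read 12.55, 12.89 and 13.30 and overlapped both paced groups. Chronic sheep D15 gave the highest right value, 13.73.

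In cardiomyocytes the median side difference of the paced change was 0.05, but -0.06 with library totals, a scaling that moved the median gene by -0.11. The largest rise was that of ENSOARG00000017443, at 0.47 ± 0.16 (SE, limma adjusted p of 0.29). Right chronic libraries read 8.65, 8.98 and 8.99 for this gene and left chronic ones 9.52, 9.58 and 9.61. Right controls, at 9.16, 9.38 and 9.38, and left controls, at 9.17, 9.33 and 9.47, overlapped.

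Whether the chronic minus transition difference itself depended on side was also outside the rule, and 0 of 102 members passed in either table, against 0% of all genes in both. At an unadjusted p under 0.05 by limma there were 4 of 102 members in whole tissue, beside 436 of 12333 genes. In cardiomyocytes there were 7, beside 857 of 12279 genes. In cardiomyocytes 96 of 102 members had a higher chronic minus transition difference on the left than on the right, with a median of 0.14, where 55.4% of all genes did, with a median of 0.03. Leaving out any 1 sheep kept this median between 0.11 and 0.20. With library totals 58 members were positive, with a median of 0.01, while the all-gene median was -0.10. Relative to the median gene the members lay 0.11 higher. A change of scaling moves all genes of a library alike, so it could not alter that gap. Members are not replicates of a condition, so no test was made over them.

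ENSOARG00000015194 had the largest side dependence of this kind in both tables. Left chronic cardiomyocytes read 12.39, 12.45 and 12.61, above all other cardiomyocyte libraries of the gene, which lay between 11.73 and 12.17. Left chronic whole tissue read 11.74, 11.92 and 12.69, above left transition at 11.31, 11.34 and 11.44 and left controls at 11.59, 11.67 and 11.69, while right chronic libraries at 11.26, 11.76 and 11.77 overlapped right transition at 11.39, 11.47 and 11.68. The highest tissue value was that of D15. By limma the difference of differences was 0.54 ± 0.14 (SE) in cardiomyocytes, with an adjusted p of 0.64, and 0.67 ± 0.26 (SE) in whole tissue, with an adjusted p of 0.9998. On the left alone, chronic exceeded transition by 0.42 ± 0.14 (SE, limma adjusted p of 0.55) in cardiomyocytes and by 0.75 ± 0.22 (SE, limma adjusted p of 0.20) in whole tissue, or 0.47 without D15. Chronic sheep D16 and D19 gave both tissue and cells, so the tables are not separate evidence.

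The state against control differences entered the rule as a mean over states and sides, and nothing is read from their counts. By limma in whole tissue, 0, 1, 0 and 0 of 102 members passed for left transition (background 1.49% of all genes), left chronic (7.49%), right transition (0.624%) and right chronic (1.26%). In cardiomyocytes the counts were 0, 0, 0 and 2, with backgrounds of 3.4%, 7.64%, 0.652% and 5.16%. The 3 members that passed were lower in paced sheep, and are named here after their values were seen. ENSOARG00000018593 read 9.83, 9.95 and 10.06 in left control tissue and 9.26, 9.38 and 9.62 in left chronic tissue. ENSOARG00000003713 read 12.79, 12.88 and 12.89 in right control cardiomyocytes and 12.21, 12.27 and 12.60 in right chronic ones. For ENSOARG00000017709 these cells read 10.75, 10.87 and 11.15 in controls and 10.34, 10.38 and 10.56 in chronic sheep. In each case the groups did not overlap, but these members were picked for passing, so the separation is not further evidence.

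In the posterior left atrium 18 of 102 members passed by limma for transition against control, beside 17.5% of 12035 genes. Of these members 16 were higher and 2 lower, where over all genes 1064 were higher and 1045 lower. The rule used this contrast, so nothing is read from the counts. No member differed by more than 0.51 in size, against a limit of 0.8. Among the 16 higher were members named above. They were ENSOARG00000015194, by 0.43, ENSOARG00000020482, by 0.45, ENSOARG00000010281, by 0.27, ENSOARG00000006966, by 0.32, ENSOARG00000017443, by 0.40, and ENSOARG00000006957, by 0.24. The 2 lower members, named after their values were seen, were ENSOARG00000007894 and ENSOARG00000019607. ENSOARG00000007894 ranged from 12.51 over a median of 12.62 to 12.85 in controls and from 12.16 over 12.23 to 12.66 in transition sheep. The groups overlapped through transition sheep G13. ENSOARG00000019607 ranged from 9.99 over 10.18 to 10.35 in controls and from 9.61 over 9.90 to 9.97 in transition sheep, without overlap. It was picked for passing, so the separation is not further evidence.

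Levels in whole tissue and in isolated cardiomyocytes could be set side by side in 14 pairs of libraries, from the same side of the same 7 sheep. The tables were normalized separately, so these differences are not tested. The median member had a tissue minus cardiomyocyte difference of -0.04 log2 units, and the median size of the difference was 0.18, against 0.26 for the other abundant genes and 0.44 over all genes. Of 102 members 9 differed by more than 0.5, which was not counted over all genes. Members had to reach the level threshold in both tables, so small differences follow in part from the rule. In all 14 pairs 8 members were higher in tissue, where 28.8% of 11796 genes were, and 4 were lower, where 4.09% were. With library totals the counts were 13 and 4.

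Among the members higher in tissue, ENSOARG00000003474 led, at 0.71 ± 0.18 (SD, n = 14 pairs), followed by ENSOARG00000020863 at 0.68 ± 0.19 (SD, n = 14 pairs). ENSOARG00000003474 read 10.37 to 11.13 over the 18 whole tissue libraries and 9.75 to 10.30 over the 18 cardiomyocyte libraries, with no overlap. ENSOARG00000004399 led those higher in cells, at -0.91 ± 0.24 (SD, n = 14 pairs), and read 10.27 to 10.84 in tissue and 11.02 to 11.76 in cells. ENSOARG00000013748 followed at -0.73 ± 0.21 (SD, n = 14 pairs). Without symbols or marker genes, what other cell types contributed to the tissue level of these genes was not tested.

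The D15 minus D16 gap in whole tissue ran against these differences between tissue and cells. Over the 102 members, Pearson's r was -0.60 and Spearman's rho -0.58 between the gap and the tissue minus cardiomyocyte difference taken from the 12 pairs without D16. Members with a lower tissue minus cardiomyocyte difference tended to have a larger gap. This is a description across genes, which share libraries and scaling and are not replicates. The correlation was not computed for the other abundant genes or for all genes. ENSOARG00000003474, the member with the highest tissue minus cardiomyocyte difference, had a gap of -0.55, whereas ENSOARG00000004399, the one with the lowest, had a gap of 0.50.

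**Figure D5:**
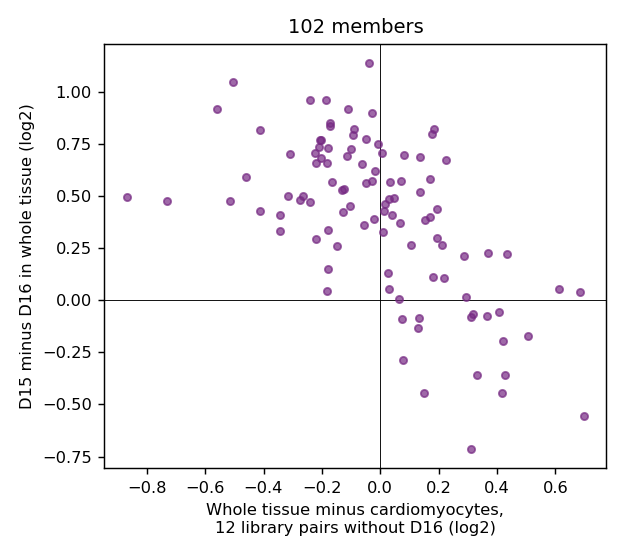
Difference between chronic sheep D15 and D16 in whole tissue against the whole tissue minus cardiomyocyte difference from the 12 library pairs without D16, both in log2 units. Each point is 1 of 102 members, and the points fall from upper left to lower right (Pearson's r of -0.60).

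In 5 sheep the posterior left atrium could be set beside left appendage tissue. Members differed between those regions by a median size of 0.13 log2 units, against 0.20 for the other abundant genes and 0.24 over all genes. The range over members was -0.46 to 0.49, and the signed median was -0.07. These tables too were normalized separately, so no test was made. The level threshold again applied to both, so small differences follow in part from the rule.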

How the data were processed

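Libraries were made with an Illumina NEBNext Ultra kit, per the labels. RSEM, limma, cutadapt and bcl2fastq are listed, with neither version nor role, in the submitters' processing notes. Aligner, genome build, annotation and strand use were not given in the sources used here. Values in log2 CPM were deposited by the authors, 1 column per sheep and region (18, 18 and 12 columns from 91 sample records). All 237366 and 238716 appendage values gave whole reads within 0.05 reads, while 11.3% of low posterior left atrium values did. Whole reads were thus not recovered for the posterior left atrium, and the step behind this was not stated. The 7 sheep with G numbers were compared there with the other 5 in a linear model with state. The p was under 0.1 for 0.74% of genes, so that difference may have been removed before deposit. No appendage library was a copy of another in its table: the lowest chi-square per degree of freedom over 153 pairs in each was 11.5. Posterior left atrium libraries were not compared.

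The members and every list were chosen with earlier results of these data known. Tests used limma 3.58.1 in R 4.3.3 on the deposited log2 values, with a mean-variance trend, 6 group means and the sheep as a random effect (consensus correlation 0.294 in whole tissue and 0.47 in cardiomyocytes). The posterior left atrium model had state and set. Genes with a mean below 0 were left out, and 12333, 12279 and 12035 were tested at an adjusted p of 0.05. The sheep in the labels pair left with right libraries. The fit was tested on simulated data. Members are named by rule: the 2 most abundant, the 2 of lowest and of highest spread, the extremes of each contrast, the 2 with the largest tissue and cell differences in each direction, and those at a threshold.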

Additional observations from a re-analysis of the deposited data

Results flagged for a closer look

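In the posterior left atrium, ENSOARG00000007894 read 12.66 log2 CPM in transition sheep G13, far above the next highest transition sheep at 12.27. The gap was 0.78 of the range of the 6 sheep, where 0.625 marks a value that stands apart. Of 48 groups of 6 sheep examined this way 1 was marked, and chance alone marks about 1 in 20. G13 was also the posterior left atrium library in which the median member stood highest above its own mean, by 0.22.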

How the results depend on the processing

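The number of genes that met the rule was 102, 96 with library totals (95 of them members), 169 at a level of 8.5, 69 at 9.5, 71 with the paced limit in each appendage, 67 with a paced limit of 0.2, and 88 to 107 when any 1 sheep was left out. Members called numbered 0 in each of the 10 contrasts under the alternatives run, with the exception given above: 0 to 2 in right cardiomyocytes when 1 sheep was left out. Fits with no replicate block and with sheep as a fixed block (side differences only) called 0 members each. Counts over all genes moved more. For chronic minus transition of both sides they were 14 in whole tissue and 3 in cardiomyocytes, 83 and 24 with no block, 7 and 0 with voom, 0 in whole tissue without D24 and 99 in cardiomyocytes without D23. For the side difference of the paced change they were 6 and 3, then 0 and 1 with no block, 0 and 9 with voom, 2 and 11 with a pseudocount of 10 reads, 15 in cardiomyocytes with the fixed block and 35 without D20. Members higher in tissue in all pairs rose from 8 to 13 with library totals, an alternative chosen after seeing the data. The side difference of ENSOARG00000007328 in whole tissue, the largest rise at 0.18, ranged from -0.11 (without S3) to 0.43 when 1 sheep was left out. Leaving out 1 sheep kept the median member SD within 0.19 to 0.25, 0.14 to 0.16 and 0.15 to 0.17, and the first component within 46.6% to 57.2%. Scaling by library totals moved the median gene by -0.15 for left chronic minus transition in whole tissue and by -0.13 for its side difference in cardiomyocytes. No member had fewer than 2228 reads in any appendage library, so counting error was small beside the spread between the 3 sheep of a group.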
